A study of Homo sapiens and Mus musculus with 69 samples.

Results

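The 6 genes described here are the 3 MYC family paralogs *MYC*, *MYCN* and *MYCL*, their obligate partner *MAX*, and *MXD1* and *MXI1*, 2 of the proteins that compete for *MAX*. They were taken by name: 6 of the 20516 genes in the table of human small cell lung cancer (SCLC) libraries, and *Myc*, *Mycn*, *Mycl*, *Max*, *Mxd1* and *Mxi1*, 6 of the 18501 genes in the table of the mouse line KP1. Bulk RNA-Seq of polyA RNA was made in 69 libraries, 60 human and 9 mouse, in groups of 3. The study activated Notch signaling, through the intracellular domain of NOTCH1 (N1ICD) or by inhibition of the histone demethylase LSD1, and asked what followed in SCLC cells. It also overexpressed REST, a gene downstream of Notch signaling, to compare it with N1ICD.

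The human lines were H82, H524, H69 and COR-L88, of which H82 and H524 are of the NEUROD1 type. H82, H524 and H69 were measured as parental cells and as cells carrying a lentiviral, doxycycline-inducible *N1ICD* vector without (no dox) and with doxycycline (dox). H82 *N1ICD* cells with *REST* KO and with *STING1* KO, both made with CRISPR-Cas9, were measured without and with doxycycline, and H524 cells carrying a doxycycline-inducible *REST* vector likewise. The doxycycline arms of the overexpression experiments were, per the study's methods, adherent cells collected after long-term culture, so these arms were also selected for attachment. COR-L88 cells were treated with DMSO, with the reversible LSD1 inhibitor TAS1440, or with TAS1440 plus a gamma-secretase inhibitor (GSI), which blocks the cleavage that releases N1ICD. COR-L88 *STING1* KO cells received DMSO or TAS1440. KP1, a mouse SCLC line mutant for *Rb1* and *Trp53*, received DMSO, TAS1440 or TAS1440 plus GSI, and the GSI was a different compound from the one used in COR-L88. Which KO clone a library came from is not in the labels.

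MYC, MYCN and MYCL are basic helix-loop-helix leucine zipper transcription factors that bind E-box DNA as heterodimers with MAX and raise the transcription of genes for ribosome biogenesis, nucleotide synthesis, metabolism and the cell cycle. MXD1 and MXI1 also pair with MAX, occupy the same E-boxes and repress. In SCLC the 3 paralogs are known as recurrently amplified oncogenes, usually only 1 of them in a given tumor, and *MYC* is linked to the less neuroendocrine states.

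All values are log2(RPKM + 1), on which a difference of 1 is a doubling for well expressed genes and less than that near 0. Levels of different genes are compared per length on this scale, with gene lengths that the sources used here do not give. A gene was called changed when limma's moderated test gave a Benjamini-Hochberg adjusted *P* under 0.05 over all genes tested in the comparison, and "higher", "lower", "rose" and "fell" are used of called genes. Errors of fold changes are standard errors (SE), and errors of levels are standard deviations (SD) over 3 libraries. Nothing in the labels says that the 3 libraries of a group were separate cultures, so the *P* values measure the spread between libraries, which may be technical. In bulk libraries fewer cells with a transcript and less transcript per cell cannot be told apart.

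The 250 bases before the annotated start of *MYCN* and of *MYCL*, the leading paralogs of H69 and COR-L88, are shown from RefSeq (GRCh38.p14; *MYCN* chr2:15940300-15940549, plus strand; *MYCL* chr1:39901918-39902167, minus strand), read 5′ to 3′ on the strand of the gene. Capitals mark matches to the core of the site bound by RBPJ, the DNA-binding partner of N1ICD (TGGGAA, searched on both strands).
*MYCN*: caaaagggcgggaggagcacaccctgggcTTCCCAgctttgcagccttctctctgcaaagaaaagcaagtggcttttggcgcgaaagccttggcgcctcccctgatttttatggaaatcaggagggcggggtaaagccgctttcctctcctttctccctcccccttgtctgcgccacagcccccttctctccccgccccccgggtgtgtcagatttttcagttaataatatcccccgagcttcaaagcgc
*MYCL*: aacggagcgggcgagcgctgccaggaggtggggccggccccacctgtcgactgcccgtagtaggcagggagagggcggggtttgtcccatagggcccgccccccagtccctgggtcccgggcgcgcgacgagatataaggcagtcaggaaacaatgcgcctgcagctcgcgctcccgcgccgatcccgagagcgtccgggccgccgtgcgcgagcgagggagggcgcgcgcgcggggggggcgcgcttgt
The *MYCN* stretch held 1 such match, at position -221 from the start and on the opposite strand, and the *MYCL* stretch held none. Of 35116 RefSeq promoters of this length 20.8% held the core. The E-box letters CACGTG, which MYC-MAX and MXD-MAX dimers bind, were in neither stretch, nor in those of *MAX*, *MXD1* and *MXI1*, against 6.34% of all promoters. These matches are letters in a window of 250 bases, and the libraries hold no measurement of binding.

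The labels were checked first. *NOTCH1* was called higher with doxycycline in every *N1ICD* comparison (log2 fold changes of 3.70, 6.86 and 7.6 in H82, H524 and H69, and of 8.23 and 5.02 in H82 with *REST* KO and *STING1* KO), and *REST* was higher by 4.01 (SE 0.686) in H524 cells with the *REST* vector. Uninduced *N1ICD* vector cells also differed from parental cells in *NOTCH1*. It was higher in H524 by 0.797 (adjusted *P* = 0.0419) and lower in H69 by 0.208 (0.0295). In H82 the difference was 1.142 and not called (0.091). Its part in other differences between uninduced and parental cells was not tested. In COR-L88 *NOTCH1* was at means of 0.66 with DMSO, 2.35 with TAS1440 and 6.73 with TAS1440 plus GSI. Its transcript was thus highest in the GSI arm, by 4.385 over TAS1440 alone (SE 0.388; adjusted *P* = 3.23e-06). In KP1 *Notch1* was at 0.05, 1.24 and 0.39 in the same order. The transcripts of *REST* and of *STING1* (listed as *TMEM173*) were still present in the KO groups, at means of 4.11 and 5.26 for *REST* in H82 and of 0.39 and 1.61 for *TMEM173*, and in COR-L88 the KO groups had *TMEM173* at 0.19 with DMSO and 1.07 with TAS1440, against 0.28 and 2.2 in intact cells. With doxycycline *REST* was lower in H82 *REST* KO than in intact cells by 1.05 (SE 0.219; adjusted *P* = 0.00114), and without it the difference was -0.53 and not called (0.113). Transcript levels therefore do not settle the KO labels. *NEUROD1*, a neuronal differentiation factor, was at 13.31 and 13.79 in parental H82 and H524 and at 4.37 in parental H69. In H69 *N1ICD* cells without doxycycline, however, it was at 9.39, so these libraries differed in this marker from their parental line. The leukocyte genes *PTPRC* and *CD3E* were at or near 0 in all groups. Libraries are named by the number in their labels. Those that stood apart from their group over many genes were library 4 of H82 *N1ICD* without doxycycline, libraries 22 and 23 of H524 *N1ICD* without doxycycline, library 20 of parental H524, library 6 of KP1 with TAS1440 and, less so, library 1 of parental H82. Values without them are given where a call or its size changed.

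Each untreated human line expressed 1 MYC paralog far above the others, and which one it was differed between lines. *MYC*, the broadly expressed paralog, was at 9.2, 8.71 and 9.15 in the 3 libraries of parental H82 and at 8.89, 8.92 and 8.99 in parental H524. It was at 1.81, 1.99 and 2.13 in parental H69 and at 1.95, 1.91 and 1.72 in DMSO-treated COR-L88. H82 and H524 thus stood far above H69 and COR-L88, with no overlap, and within each pair the libraries overlapped. *MYC* was 7.04 (SE 0.159) higher in H82 than in H69 (adjusted *P* = 2.49e-11) and 7.07 higher in H524 than in COR-L88 (3.86e-11). H82 and H524 differed by 0.08 (95% interval -0.263 to 0.432) and H69 and COR-L88 by 0.12 (-0.232 to 0.464), and neither was called.

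*MYCN*, the paralog named from neuroblastoma, was at 6.59, 6.79 and 6.66 in parental H69. No other untreated library was above 0.94, and the 3 COR-L88 libraries listed it at 0. H69 was above H82 by 6.42 (SE 0.164) and above H524 by 6.14. *MYCN* entered this fit only through the H69 libraries, where it is high, so the *P* values of these differences are not read as tests. *MYCL*, first found amplified in SCLC, was at 7.68, 8.22 and 7.98 in COR-L88, 3.11, 3.61 and 2.93 in H82, 1.62, 0.92 and 2.14 in H524, and 0.17, 0.20 and 0.14 in H69. The order of its levels, COR-L88 over H82 over H524 over H69, had no overlap between neighbours, and each step was called: 4.74 (5.9e-08), 1.66 (SE 0.283; 0.000436) and 1.39 (SE 0.283; 0.00133). Without library 20 of parental H524 the steps from H82 to H524 and from H524 to H69 were 1.34 and 1.71, and without library 1 of parental H82 those from COR-L88 to H82 and from H82 to H524 were 4.69 and 1.71, all called.

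*MAX* gave no call between the lines. Its 4 group means were 2.56, 2.77, 2.49 and 2.5 in H82, H524, H69 and COR-L88, with differences from -0.20 to 0.28, and 1 of the 6 pairs was called under quantile normalization (H524 over H69 by 0.38, adjusted *P* = 0.0477). The repressors did differ. *MXD1* had means of 5.22 in COR-L88, 3.49 in H82, 4.71 in H524 and 3.61 in H69, and was higher in COR-L88 than in H82 by 1.73 (adjusted *P* = 0.00131) and than in H69 by 1.61 (0.00249). COR-L88 and H524 overlapped and were not called different (95% interval of H524 minus COR-L88 -1.301 to 0.284). Without library 20 of parental H524, neither H82 (-0.88, adjusted *P* = 0.0507) nor H69 (0.76, 0.0842) was called different from H524 in *MXD1*. *MXI1* ran the other way, at 1.43 in COR-L88 against 4.30, 3.89 and 3.48, lower than in each of the other lines by at least 2.05 (adjusted *P* = 3.81e-05 or smaller). Between 56.3% (H82 against H524) and 68.8% (H82 against H69) of the 14047 genes tested were called in these 6 comparisons; H82 with COR-L88 gave 64.3%, H524 with H69 58%, H524 with COR-L88 59.1% and H69 with COR-L88 57%.

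As shares of the summed RPKM of the 3 paralogs, *MYC* made up 98.3% ± 0.839 (SD, n = 3) in parental H82, *MYCN* 97.0% ± 0.379 in parental H69 and *MYCL* 98.9% ± 0.289 in DMSO-treated COR-L88. In H82 and H524 *MYC* was at least 94.3% in every library of every group. The family as a whole was also at different heights: the log2 of the summed RPKM was 9.05 in H82, 7.97 in COR-L88 and 6.72 in H69. By rank among the 20516 genes, *MYC* stood between 454 and 582 in parental H82 and H524, *MYCL* between 675 and 968 in COR-L88 and *MYCN* between 1578 and 1703 in H69.

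**Figure D1:**
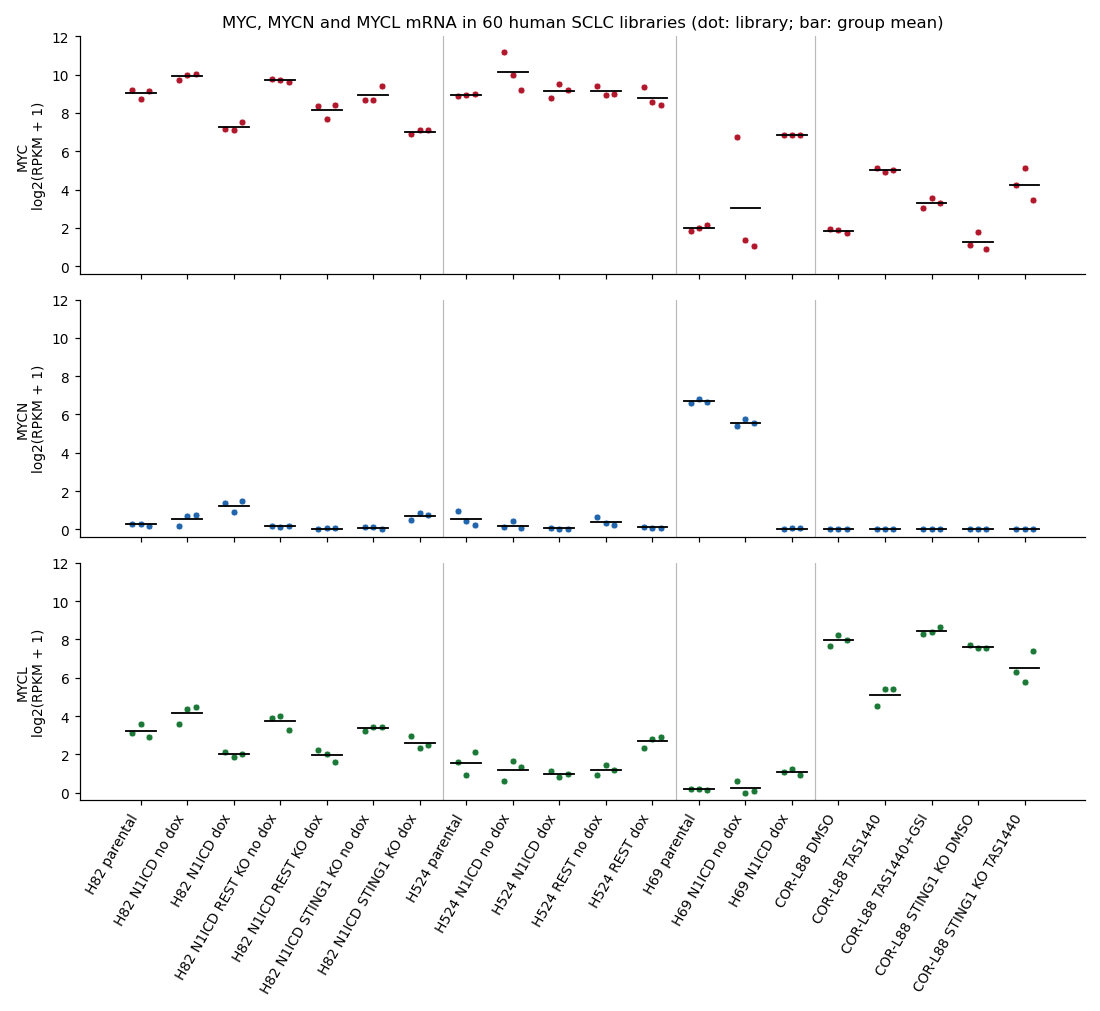
*MYC*, *MYCN* and *MYCL* levels, in log2(RPKM + 1), in the 20 human groups; each dot is a library, each bar the mean of 3 libraries, and vertical lines separate H82, H524, H69 and COR-L88. *MYC* is high in all H82 and H524 groups, *MYCN* only in the parental and no dox groups of H69, and *MYCL* in COR-L88; 1 of the 3 H69 *N1ICD* libraries without doxycycline has *MYC* at 6.75 while the others are at 1.35 and 1.04.

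The question asked of each induced or treated group was how the paralogs moved when Notch signaling was activated or *REST* overexpressed. In H82, *MYC* and *MYCL* both fell with *N1ICD*. *MYC* was at 9.70, 9.99 and 10.02 without doxycycline and at 7.17, 7.09 and 7.51 with it. The groups did not overlap, and *MYC* fell by 2.65 (SE 0.222; adjusted *P* = 2.13e-08), a 6.26-fold difference on the log2(RPKM + 1) scale, yet kept 97.2% of the family's RPKM. *MYCL* was at 3.57, 4.39 and 4.48 without doxycycline and at 2.12, 1.87 and 2.04 with it, lower by 2.14 (SE 0.259; adjusted *P* = 2.21e-06). *MYCN*, too low in H82 to be tested, was at 0.18, 0.68 and 0.76 without doxycycline and at 1.36, 0.90 and 1.47 with it, all near the floor of the table. Among the partners, *MXI1* fell by 1.49 (SE 0.393; adjusted *P* = 0.00432), with values of 3.45, 5.64 and 5.39 before and 3.41, 3.37 and 3.24 after, where library 4 is the low one of the no dox group. Without library 4 *MYC* fell by 2.75, *MYCL* by 2.42 and *MXI1* by 2.17, all called. *MAX* differed by -0.04 (95% interval -0.488 to 0.413) and *MXD1* by 0.19 (-0.457 to 0.832), neither called. In all, 3 of the 5 members tested were lower and none higher, in a comparison where 50.3% of 13903 genes were called, 25.4% higher and 24.9% lower. When only the compared groups were in the model the call of *MXI1* was lost (adjusted *P* = 0.0525).

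A fall of *MYC* and *MYCL* was also called in H82 cells with *REST* KO and with *STING1* KO. With *REST* KO, *MYC* was at 9.75, 9.71 and 9.61 without doxycycline and 8.38, 7.66 and 8.43 with it, and fell by 1.53 (adjusted *P* = 1.45e-05). *MYCL* fell by 1.77 (1.58e-05), *MXI1* by 2.08 (0.00025) and *MXD1* by 1.47 (0.000607), so that 4 of 5 members were lower where 52.2% of genes were called (26% higher, 26.2% lower). The response of *MYC* was smaller than in *REST*-intact cells by 1.11 (SE 0.314; adjusted *P* = 0.0202), and that of *MXD1* was shifted downward by 1.66 (SE 0.434; 0.0129), in a test that called 16.6% of genes (9.34% higher, 7.26% lower). The first of these was not called without library 31 (1.00, adjusted *P* = 0.0563) or library 33 (0.98, 0.0565), which had the higher *MYC* of the *REST* KO libraries with doxycycline. With doxycycline in both, *MYC* was higher in *REST* KO than in intact cells by 0.90 (SE 0.222; adjusted *P* = 0.00399; 38.4% of genes called, 17.6% higher and 20.7% lower), and its 2 groups did not overlap. *NOTCH1* was higher in the same comparison by 4.69 (SE 0.435; 2.06e-07), and its response to doxycycline was larger with *REST* KO by 4.53 (SE 0.615; 4.62e-05). Its part in the *MYC* differences was not tested. Without doxycycline *MXD1*, but none of the other members, was higher in *REST* KO cells (4.85, 4.83 and 5.25 against 3.13, 4.35 and 3.99; difference 1.15, adjusted *P* = 0.0171; 15.2% of genes called, 6.92% higher and 8.32% lower). That difference was 0.81 and not called without library 4 (adjusted *P* = 0.0829), and without library 30 (0.0767).

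With *STING1* KO, *MYC* was at 8.67, 8.67 and 9.38 without doxycycline and 6.92, 7.08 and 7.08 with it, a fall of 1.88 (adjusted *P* = 2.43e-06). *MYCL* fell by 0.77 (0.0252, not called in 4 of 6 fits without 1 library) and *MXI1* by 1.48 (0.00615), 3 of 5 members lower where 37.8% of genes were called (20.8% higher, 16.9% lower). The starting points differed as well: without doxycycline, *STING1* KO cells had *MYC* lower by 1.00 (SE 0.222; 0.00227) and *MYCL* lower by 0.78 (0.0257, not called in 4 of 6 fits without 1 library) than intact cells, where 34.6% of genes were called (13% higher, 21.6% lower). The *MYCL* response to doxycycline was smaller by 1.36 (SE 0.366; adjusted *P* = 0.0256; 9.26% of genes called, 5.01% higher and 4.26% lower), a call lost in 6 of 12 fits without 1 library (where it ran from 1.18 to 1.65), and the *MYC* response differed by 0.77 (95% interval 0.106 to 1.427; adjusted *P* = 0.137). With doxycycline no member was called by limma between *STING1* KO and intact cells (1 of 5 had an unadjusted *P* under 0.05; 39.2% of genes called, 16% higher and 23.2% lower). *NOTCH1* was higher in that comparison by 2.10 (SE 0.435; adjusted *P* = 0.00113) and *REST* lower by 0.60 (0.0385). Without doxycycline *REST* was higher in the KO cells by 0.62 (0.0363) and *NOTCH1* was not called (0.77, 0.181). Their part in the *MYC* and *MYCL* differences was not tested. The uninduced vector cells themselves had more *MYC* (by 0.88, adjusted *P* = 0.0127) and *MYCL* (by 0.93, 0.0226) than parental H82, 2 of 5 members where 13.7% of genes were called (7.56% higher, 6.13% lower), and both calls were lost when only these 2 groups were in the model (0.0827 and 0.178). Without library 1 of parental H82 *MYCL* was not called (0.88, adjusted *P* = 0.055).

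In H524 none of the 5 members tested was called by limma with *N1ICD* (1 had an unadjusted *P* under 0.05), where 32.3% of 13648 genes were called (17.9% higher, 14.4% lower). *MYC* was at 11.19, 9.99 and 9.19 without doxycycline and at 8.77, 9.51 and 9.18 with it, and the groups overlapped. The difference was -0.97 (95% interval -1.818 to -0.114; adjusted *P* = 0.079), and without library 24, the lowest of the no dox group, it was -1.43 and was called (0.0089). Without library 22, the highest, it was -0.43 (0.32), and without library 23 -1.03 (0.0957). *MYCL* was low, with means of 1.21 and 0.983. *PVT1*, the noncoding neighbour of *MYC*, was at 8.30 ± 0.0247 in these no dox libraries against 5.00 ± 0.312 in parental H524. The no dox libraries also had more *MYC* (by 1.19, adjusted *P* = 0.041) and *MAX* (by 0.85, 0.0036) and less *MXI1* (by 1.04, 0.0314) than parental cells, 3 of 5 members where 26.6% of genes were called (10.7% higher, 15.9% lower). All 3 calls were lost with only those groups in the model, and without library 22 *MYC* (0.65, 0.151) and *MXI1* (-0.57, 0.0926) were not called, nor *MXI1* without library 20 (-0.85, 0.108).

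*REST* overexpression in H524 left *MYC* at 9.34, 8.59 and 8.43 against 9.42, 8.95 and 8.99 (difference -0.33, 95% interval -1.182 to 0.523). *MYCL* alone of the 5 was called: 0.92, 1.44 and 1.19 without doxycycline and 2.33, 2.83 and 2.93 with it, higher by 1.51 (SE 0.312; adjusted *P* = 0.0205), in a comparison that called 2.83% of genes (1.77% higher, 1.06% lower). This call did not pass in 5 of the 6 fits that left out 1 library. Between the 2 doxycycline arms, *MYCL* was lower with *N1ICD* than with *REST* by 1.71 (0.000599) and *MAX* higher by 0.93 (0.000709), where 42.8% of genes were called (19.9% higher, 22.9% lower). The *MYCL* responses to the 2 vectors differed by 1.74 (SE 0.441; adjusted *P* = 0.0133; 19.1% of genes called, 11.7% higher and 7.36% lower), *REST* upward and *N1ICD* not called. The 2 arms were not separate in the targeted genes. *REST* also rose with *N1ICD*, by 2.715 (adjusted *P* = 0.00771), and *NOTCH1* with the *REST* vector, by 1.382 (0.0144). The *REST* responses to the 2 vectors were not called different (-1.297, 0.391). The part of these changes in the *MYCL* and *MAX* differences was not tested. Uninduced *REST* vector cells and parental cells were not called different by limma in any member (0 of 5 with an unadjusted *P* under 0.05; 0.3% of genes called, 0.0366% higher and 0.264% lower).

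In H69 the family switched paralog. *MYCN* was at 6.59, 6.79 and 6.66 in parental cells, at 5.39, 5.76 and 5.57 in *N1ICD* cells without doxycycline and at 0.04, 0.05 and 0.05 with it. No 2 of these groups overlapped, and the drop with doxycycline was 5.53 (SE 0.0972; adjusted *P* = 4.08e-10), 46.1-fold on the log2(RPKM + 1) scale. *MYC* moved in the other direction, to 6.84, 6.82 and 6.84 with doxycycline. Without doxycycline its libraries were at 6.75, 1.35 and 1.04: library 49 was at nearly the induced level while the other two were below the parental libraries. The difference over all libraries was 3.78 (SE 1.29; 95% interval 0.827 to 6.738; adjusted *P* = 0.023), and without library 49 it was 5.63 (SE 0.115; 3.51e-09). When any of the other 5 libraries was left out instead, it was between 2.78 and 3.79 and not called (adjusted *P* from 0.0507 to 0.0819). Library 49 still had *MYCN* at 5.39, within reach of the other libraries of its group, and without it the fall of *MYCN* was 5.62. *NOTCH1* was between 0.38 and 0.39 in the libraries of this no dox group, library 49 included, against a mean of 7.99 with doxycycline. The cause of the high *MYC* of library 49 was not tested.

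In shares of the family, parental H69 had 97.0% *MYCN* and 2.82% *MYC*, and induced cells had 99.0% ± 0.2 *MYC*, 0.994% *MYCL* and 0.03% *MYCN*. The log2 of the family's summed RPKM was 6.72 on average in parental and 6.85 in induced cells, and in the uninduced libraries it was 7.22 (library 49), 5.81 and 5.61. *MYCL* stayed low, at 0.63, 0.00 and 0.09 without and 1.10, 1.24 and 0.93 with doxycycline, and was not tested. *MAX* rose by 0.49 (SE 0.0818; adjusted *P* = 0.000474) and *MXD1* fell by 0.91 (SE 0.136; 0.000223), and *MXI1* was not called (-0.15, 0.546). Of the 5 members tested, 2 were higher and 2 lower, in a comparison where 82.3% of 13580 genes were called (44.1% higher and 38.3% lower), so that a call here is the rule and not the exception. Against parental cells the uninduced libraries were lower in *MYCN* by 1.11 (9.96e-05) and in *MAX* by 0.28 (0.0369, not called in 5 of 6 fits without 1 library), where 27.4% of genes were called (13.8% higher, 13.6% lower). Their *MYC* difference of 1.07 was not called and was -0.78 (adjusted *P* = 0.00174) without library 49.

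Tested against each other, the doxycycline responses of the 3 *N1ICD* lines differed. The *MYC* response was more positive in H69 than in H82 by 6.43 (SE 1.43; adjusted *P* = 0.00126) and than in H524 by 4.75 (0.0117). The *MYCN* response was more negative by 6.23 and 5.38, but *MYCN* entered this fit only through H69, so its *P* values are not read as tests. The comparisons of H69 with H82 and with H524 called 58.3% (30.6% higher, 27.7% lower) and 51.9% (26.2% higher, 25.7% lower) of genes. Without library 49 the *MYC* differences were 8.28 and 6.60. Between H82 and H524 the *MYC* responses differed by -1.68 (95% interval -4.727 to 1.365) and were not called, whereas *MYCL* fell further in H82 by 1.91 (SE 0.377; 0.00143; 26.5% of genes called, 12.8% higher and 13.8% lower).

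**Figure D2:**
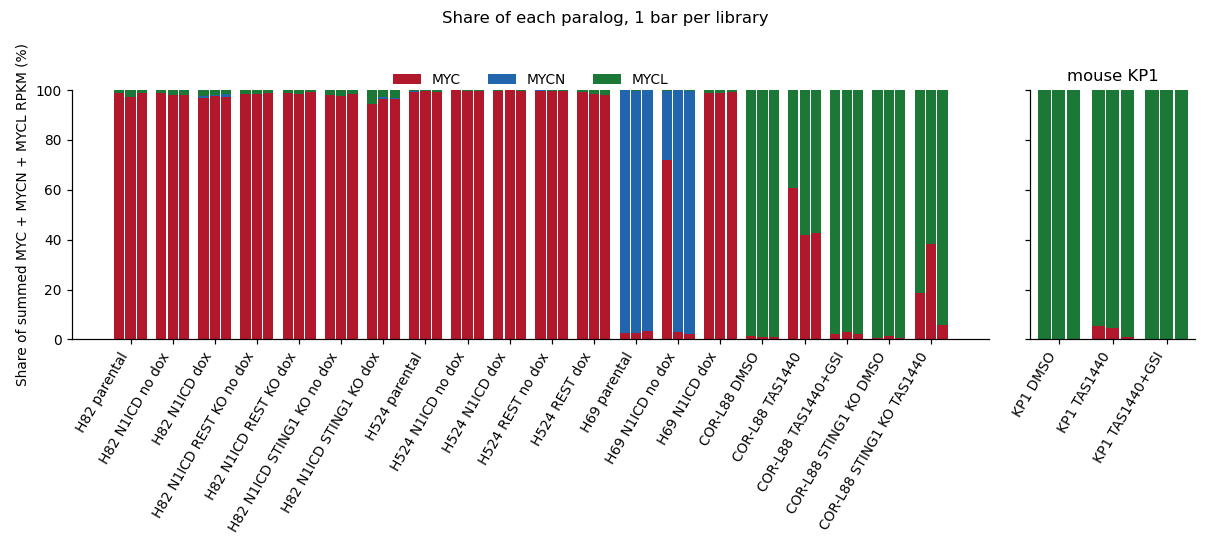
Share of *MYC* (red), *MYCN* (blue) and *MYCL* (green) in the summed RPKM of the 3 paralogs, in percent, with 1 bar per library; human groups on the left and KP1, which was scaled separately, on the right. H69 passes from 97.0% *MYCN* to 99.0% *MYC*, with 72.1% *MYC* in 1 uninduced library, and COR-L88 from 98.9% *MYCL* to a mixture with 48.5% *MYC* under TAS1440.

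In COR-L88 the LSD1 inhibitor raised *MYC* and lowered *MYCL*, and the GSI moved both toward their DMSO levels. *MYC* was at 1.95, 1.91 and 1.72 with DMSO, 5.12, 4.93 and 5.00 with TAS1440 and 3.06, 3.54 and 3.30 with TAS1440 plus GSI. The 3 groups did not overlap: *MYC* rose by 3.16 with TAS1440 (SE 0.322; adjusted *P* = 2.35e-06), fell by 1.72 when the GSI was added (0.000745), and remained 1.44 above DMSO (0.00489). *MYCL* was at 7.68, 8.22 and 7.98, then 4.52, 5.39 and 5.41, then 8.28, 8.39 and 8.66. It fell by 2.85 (SE 0.331; adjusted *P* = 7.33e-06), rose by 3.33 with the GSI (6.29e-06), and with both agents lay 0.48 above DMSO (95% interval -0.231 to 1.194; adjusted *P* = 0.334), not called although the 2 groups did not overlap. *MYCN* was listed at 0 in all 15 COR-L88 libraries.

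The family of COR-L88 under TAS1440 held 48.5% ± 10.5 *MYC* and 51.5% ± 10.5 *MYCL* by RPKM, and with the GSI 97.5% *MYCL*. Its log2 summed RPKM was 7.97 with DMSO, 6.06 with TAS1440 and 8.48 with the GSI added. *MAX* rose by 0.51 (SE 0.130; adjusted *P* = 0.00409) and *MXD1* by 0.76 (SE 0.129; 0.000216). *MXI1* was at 1.17, 1.57 and 1.55 with DMSO and 1.2, 0.84 and 0.96 with TAS1440, not called (0.164). Thus 3 of 5 members were higher and 1 lower with TAS1440, where 57.7% of 13134 genes were called (31.1% higher, 26.6% lower). With the GSI 1 was higher and 3 lower (46.7% called, 19% higher and 27.7% lower), and the 2 smaller of these, *MAX* (-0.40, 0.0221) and *MXD1* (-0.39, 0.0256), were not called under either of the other library scalings. Against DMSO, *MYC* was the 1 member called with both agents (24.5% of genes called, 13.1% higher and 11.4% lower).

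COR-L88 *STING1* KO cells answered TAS1440 with a rise of *MYC* and a smaller fall of *MYCL*. *MYC* went from 1.10, 1.80 and 0.91 to 4.22, 5.11 and 3.45, higher by 2.99 (SE 0.322; adjusted *P* = 6.68e-06), and the response differed from that of intact cells by -0.16 (95% interval -1.145 to 0.819). *MYCL* went from 7.69, 7.57 and 7.55 to 6.30, 5.78 and 7.38, lower by 1.11 (SE 0.331; 0.0146), and by 0.76 and not called without library 44 (0.0778). The difference between the *MYCL* responses was 1.74 (SE 0.468; adjusted *P* = 0.0377; 7.93% of genes called, 1.92% higher and 6.01% lower), a call lost in 11 of 12 fits without 1 library, where it ran from 1.29 to 1.88. Under TAS1440 *MYCL* was 1.38 higher in KO than in intact cells (0.00839) and *MXD1* 0.53 lower (0.00944), where 27.1% of genes were called (8.34% higher, 18.8% lower). *NOTCH1* was higher in the same comparison by 1.765 (SE 0.388; adjusted *P* = 0.00524), while its response to TAS1440 was not called different (1.423, 0.125). Its part in the *MYCL* and *MXD1* differences was not tested. *MYCL* kept 79.2% ± 16.5 of the family in the KO cells, with library 45 at 94.4%. In KO cells 3 of 5 members were higher and 1 lower with TAS1440 (43.3% of genes called, 22.4% higher and 20.9% lower). With DMSO no member was called by limma between KO and intact cells (0 of 5 with an unadjusted *P* under 0.05; 5.41% called, 2.28% higher and 3.13% lower).

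In KP1 *Myc* and *Mycl* also moved in opposite directions. *Mycl* was the most abundant transcript by RPKM in all 3 DMSO libraries, at 12.92, 13.01 and 12.37, and took 5.21% ± 0.923 (SD, n = 3) of all RPKM. With TAS1440 it was at 9.76, 10.46 and 10.06, or 0.812% ± 0.208 of all RPKM and rank 9 to 19, and with TAS1440 plus GSI at 13.37, 13.10 and 12.01, or 5.68% ± 2.29. The fall of 2.67 (SE 0.347; adjusted *P* = 0.000292) and the return of 2.73 (0.000304) were both called. *Myc* was at 0.63, 0.49 and 0.06 with DMSO, 5.65, 6.09 and 3.52 with TAS1440 and 0.46, 0.29 and 1.15 with the GSI added. It rose by 4.69 (SE 0.572; adjusted *P* = 2e-04) and fell by 4.45 (0.000327), and its TAS1440 group overlapped neither of the others. Without library 6, the lowest in *Myc*, *Myc* rose by 5.47 and fell by 5.23, and *Mycl* fell by 2.66 and rose by 2.72, all called. *Mycl* nonetheless remained the leading paralog in every KP1 library, and *Myc* made up 0.00428% of the family's RPKM with DMSO and 3.63% ± 2.34 with TAS1440.

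*Mycn* in KP1 was low throughout, at 1.88, 1.92 and 0.61, then 0.06, 0.00 and 0.35, then 1.24, 1.95 and 2.59, lower with TAS1440 by 1.33 (SE 0.401; adjusted *P* = 0.0275, not called in 4 of 6 fits without 1 library) and higher by 1.79 with the GSI (0.00795). *Mxd1* and *Mxi1* fell by 0.50 (0.00569) and 0.87 (0.002) and rose by 0.36 (0.0318) and 0.87 (0.0024), and *Max* was not called (0.13 and -0.18). Both repressors were low as well, with means in the same order of 1.16, 0.66 and 1.02 for *Mxd1* and 1.55, 0.68 and 1.55 for *Mxi1*. With TAS1440 1 of 6 members was higher and 4 were lower, where 36.7% of 8260 genes were called (18.2% higher, 18.5% lower), and with the GSI 4 were higher and 1 lower (32% called, 16.3% higher and 15.7% lower). Against DMSO no member was called by limma with both agents (0 of 6 with an unadjusted *P* under 0.05), where 1.97% of genes were (0.642% higher, 1.33% lower), and the intervals were -1.051 to 1.527 for *Myc*, -0.722 to 0.841 for *Mycl* and -0.447 to 1.362 for *Mycn*.

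**Figure D3:**
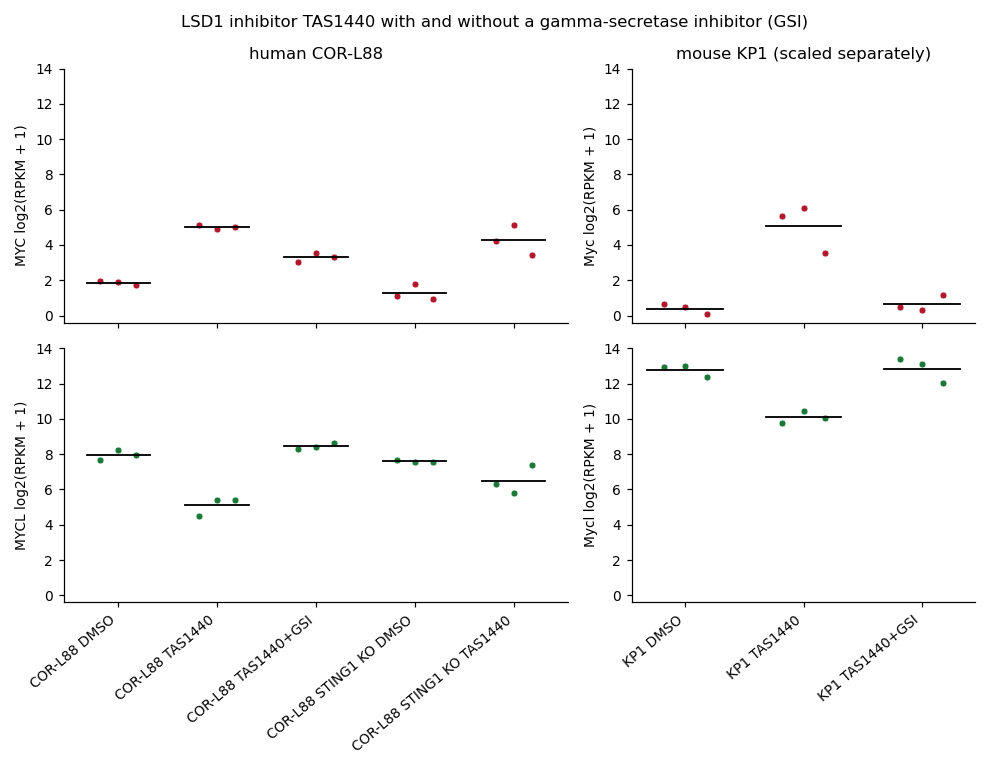
*MYC* (top) and *MYCL* (bottom) in log2(RPKM + 1) in COR-L88 (left) and their mouse orthologs in KP1 (right, scaled separately) with DMSO, TAS1440 and TAS1440 plus GSI; dots are libraries and bars group means. In both lines *MYC* rises from means of 1.86 and 0.395 to 5.02 and 5.09 under TAS1440 while *MYCL* falls from 7.96 and 12.8 to 5.11 and 10.1, and with the GSI both return toward DMSO.

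**Figure D4:**
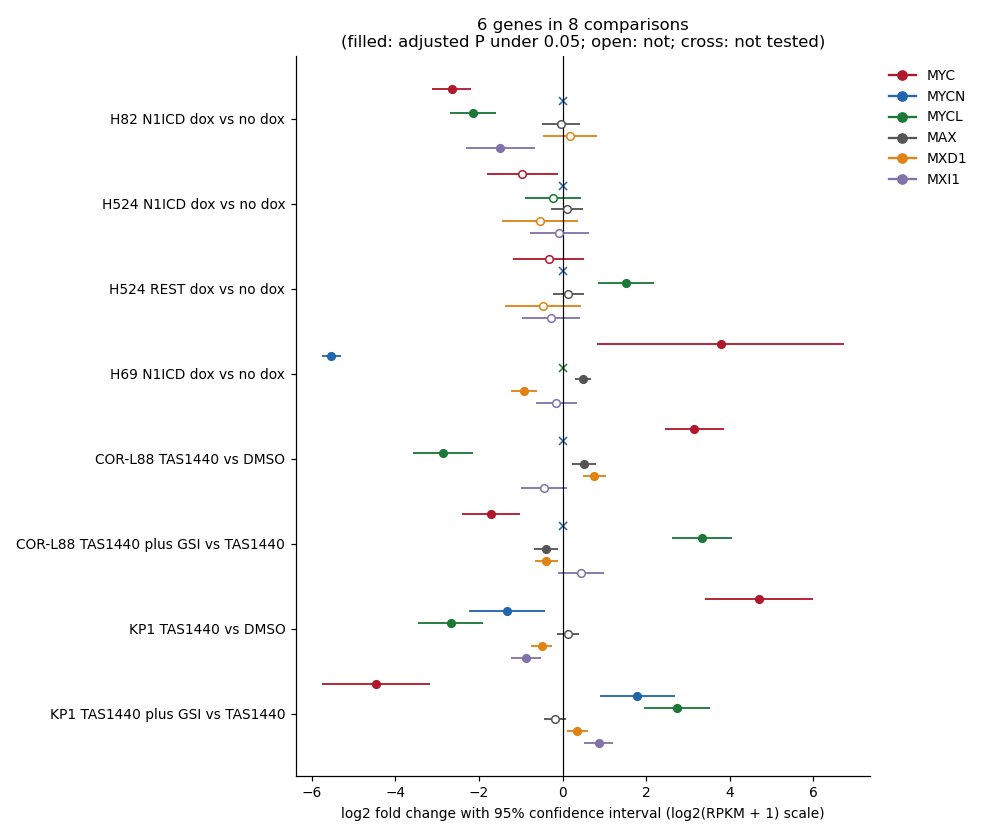
Log2 fold changes of the 6 genes in 8 comparisons, with 95% confidence intervals; filled points have an adjusted *P* under 0.05, open points do not, and a cross at 0 marks a gene too low to be tested. *MYC* lies to the left in H82 (-2.65) and to the right in H69 (3.78), COR-L88 (3.16) and KP1 (4.69) before the GSI is added, and *MAX* stays between -0.40 and 0.51.

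Over the 20 human group means, *MYC* spanned 1.27 to 10.12, *MYCN* 0 to 6.68 and *MYCL* 0.17 to 8.44, whereas *MAX* spanned 2.21 to 3.72. *MXD1* spanned 2.54 to 5.98 and *MXI1* 1.00 to 4.83. Sorted by mean, 5 of 19 neighbouring groups did not overlap for *MYC*, 4 for *MYCN*, 6 for *MYCL*, 1 for *MAX*, 2 for *MXD1* and none for *MXI1*, so most neighbours in these orders cannot be separated with 3 libraries each. As a description over these group means, which share a line in blocks of 3 to 7, Pearson's r was -0.42 between *MYC* and *MYCN*, -0.48 between *MYC* and *MYCL* and -0.46 between *MYCN* and *MYCL*. It was 0.67 between *MYC* and *MXI1* and 0.75 between *MYCL* and *MXD1*.

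Of 13962 genes with a mean of at least 2 in some group, those most like *MYC* over the 20 means were *CDAN1* (r = 0.96), *NOB1* (0.96), a ribosome maturation factor, and *NUDT10* (0.96). Those most like *MYCN* were *MYCNOS* (0.99), the antisense transcript that overlaps the start of *MYCN*, *TXLNB* (0.99) and *FOXD4L5* (0.99). Those most like *MYCL* were *TRIT1* (0.96), its neighbour on chromosome 1, *MTOR* (0.95) and *PDIK1L* (0.93). At an r of at least 0.9 there were 43 genes for *MYC*, 93 for *MYCN* and 15 for *MYCL*, and the differences between the 4 lines carry much of such values.

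In GRCh37, *MYC* lies on chromosome 8 (128747680 to 128755197), *MYCN* on chromosome 2 (16080672 to 16087129) and *MYCL* on the minus strand of chromosome 1 (40361100 to 40367928). *MAX* is on chromosome 14, *MXD1* on chromosome 2 and *MXI1* on chromosome 10, and all 6 are protein coding. Neighbours of the 3 paralog loci were examined as a list. *MYCNOS* was at 6.27 ± 0.037 in parental H69, 5.59 ± 0.638 without doxycycline and 0 in all 3 libraries with it. The library kit keeps strand, but the strand setting of the counting is not given in the sources used here, so reads of *MYCN* and *MYCNOS* cannot be told apart with certainty. *DDX1*, a helicase gene often co-amplified with *MYCN* and named after its values were seen, rose in the same H69 comparison, by 1.98 (adjusted *P* = 2.71e-08), from 4.23 to 6.21, so that neighbour moved in the opposite direction from *MYCN*. *PVT1* in H69 was at 1.40 in parental cells and 6.42 with doxycycline, and among the uninduced libraries it reached 4.78 in the one with high *MYC*. In COR-L88, *TRIT1* and *MFSD2A*, which flank *MYCL*, moved with it: *TRIT1* fell by 1.31 with TAS1440 and rose by 1.70 with the GSI, and *MFSD2A* by 1.46 and 1.67. *CAP1*, *PPT1* and *RLF* of the same neighbourhood moved against it (0.79, 1.13 and 0.70 higher with TAS1440, and 0.88, 0.65 and 0.37 lower with the GSI).

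Other proteins that dimerize with MAX or its relative MLX were taken as a list of 7 genes (*MXD3*, *MXD4*, *MNT*, *MGA*, *MLX*, *MLXIP* and *MLXIPL*). With *N1ICD* 4 of them were lower and none higher in H82, 2 lower and none higher in H524, and 5 lower and 2 higher in H69, where 24.9%, 14.4% and 38.3% of all genes were lower. The repressor *MXD3* fell by 1.08 in H82 and 2.19 in H69, and *MLXIPL*, the carbohydrate-response factor also called ChREBP, by 1.82 and 2.94. In COR-L88 *MXD3* fell by 1.94 (SE 0.193; adjusted *P* = 1.86e-06) and *MNT* by 0.98 with TAS1440, while *MXD4* rose by 1.00, 3 of 7 called where 57.7% of all genes were. With the GSI 4 of the 7 were higher, *MXD3* by 1.57, where 19% of genes were. In KP1 1 of 6 tested was called, *Mlxipl*, lower by 1.06 with TAS1440 (18.5% of genes lower) and higher by 1.00 with the GSI (16.3% higher). The medians of the list were -0.73 in H82, -0.24 in H524 and -0.67 in H69 with *N1ICD*, -0.02 in H524 with *REST*, 0.11 in COR-L88 with TAS1440 and 0.77 with the GSI, and -0.64 and 0.40 in KP1.

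Of 15 genes for MYC cofactors and MYC protein turnover, 6 were lower and 1 higher in H82 with *N1ICD*, 2 lower and 1 higher in H524, and 5 lower and 7 higher in H69, that is 7, 3 and 12 of 15 called where 50.3%, 32.3% and 82.3% of all genes were. *AURKA*, the kinase that stabilizes MYCN protein, fell by 1.90 in H82 (SE 0.418; adjusted *P* = 0.00103) and by 0.90 in COR-L88 with TAS1440, and rose by 1.15 in H69. *PIM1*, a kinase that cooperates with MYC, rose by 2.57 in H82 and fell by 1.37 in H69, by 0.57 in COR-L88 and by 0.81 in KP1 with TAS1440. *SKP2*, a ubiquitin ligase subunit for MYC, fell by 1.13 in H524. With TAS1440 5 were lower and none higher in COR-L88 (26.6% of all genes lower, 31.1% higher), and 3 of 13 tested lower and none higher in KP1 (18.5% lower, 18.2% higher).

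Genes that MYC is known to activate were taken as a list of 69, for ribosome biogenesis, nucleolar proteins, nucleotide synthesis, glycolysis and the cell cycle. In untreated cells, 51 were higher and 2 lower in H82 than in H69 (36.4% of all genes higher, 32.4% lower), and 55 higher and 3 lower than in COR-L88 (35.3% and 29%). Between H82 and H524, whose *MYC* levels were not called different, 49 of the 69 were higher and 3 lower in H82 (29.2% of all genes higher, 27.1% lower). With *N1ICD* in H82, where *MYC* fell, 47 were lower and 2 higher (median -0.74, all genes -0.003; 24.9% of all genes lower, 25.4% higher). Without library 4 the counts were 42 lower and 4 higher. *LDHA*, which makes lactate from pyruvate, fell by 3.29 (SE 0.460; adjusted *P* = 1.12e-05), *HK2* by 3.32 and *TMEM97* by 2.63, while *MAP3K6* rose by 1.38. In H524, where *MYC* was not called, 26 of 68 were lower and 1 higher (median -0.40, all genes -0.018; 14.4% of all genes lower, 17.9% higher), with *LDHA* lower by 2.77 and *NME1* by 1.68. The H524 count ran from 17 to 39 lower when 1 library was left out, 39 without library 23.

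In H69, where *MYCN* gave way to *MYC*, 49 of the 69 were higher and 10 lower (median 0.86, all genes 0.083; 44.1% of all genes higher, 38.3% lower). The nucleolar genes *MYBBP1A* and *NIP7* rose by 2.64 (SE 0.274; adjusted *P* = 2.1e-05) and 2.61, and the cyclin gene *CCND2* by 2.47, whereas *UNG* fell by 2.22, *TMEM97* by 2.16 and *LDHA* by 1.68. Without library 49 the counts were 52 and 10. With *REST* in H524 none of the 68 tested was called by limma (11 had an unadjusted *P* under 0.05, median -0.07; 2.83% of all genes called).

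In COR-L88 with TAS1440, where *MYC* rose and *MYCL* fell, 15 of 67 were lower and 5 higher (median -0.17, all genes 0.008; 26.6% of all genes lower, 31.1% higher), shares below those of all genes. *SRM*, a polyamine synthesis enzyme, fell by 2.12 and *EXOSC5*, of the RNA exosome, by 1.43, while *MAP3K6* rose by 2.80 and *HK2* by 1.49. With the GSI 17 were higher and 2 lower (19% of all genes higher, 27.7% lower), *SRM* by 1.72 and *EXOSC5* by 1.08. These counts depended on the scaling of the libraries: with quantile normalization they were 3 higher and 30 lower for TAS1440 and 31 higher and 3 lower for the GSI. They also moved with single libraries, to 26 lower without library 13 for TAS1440 and to 9 higher without library 18 for the GSI. In KP1, 11 of 64 were higher and 3 lower with TAS1440 (median 0.33, all genes 0.021; 18.2% of all genes higher, 18.5% lower), led by *Ccnd2* (3.45, adjusted *P* = 9.23e-06) and *Eno1* (2.06), and 5 higher and 7 lower with the GSI (16.3% of all genes higher, 15.7% lower). Without library 6 these were 29 higher and 4 lower, and 5 higher and 30 lower; without each other library in turn 4 to 6 were higher with TAS1440. With quantile normalization 7 were higher and 5 lower with TAS1440. The share of all genes called was not computed for these refits, here or in the other lines. Whether such counts moved more than those of all genes is therefore not known.

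**Figure D5:**
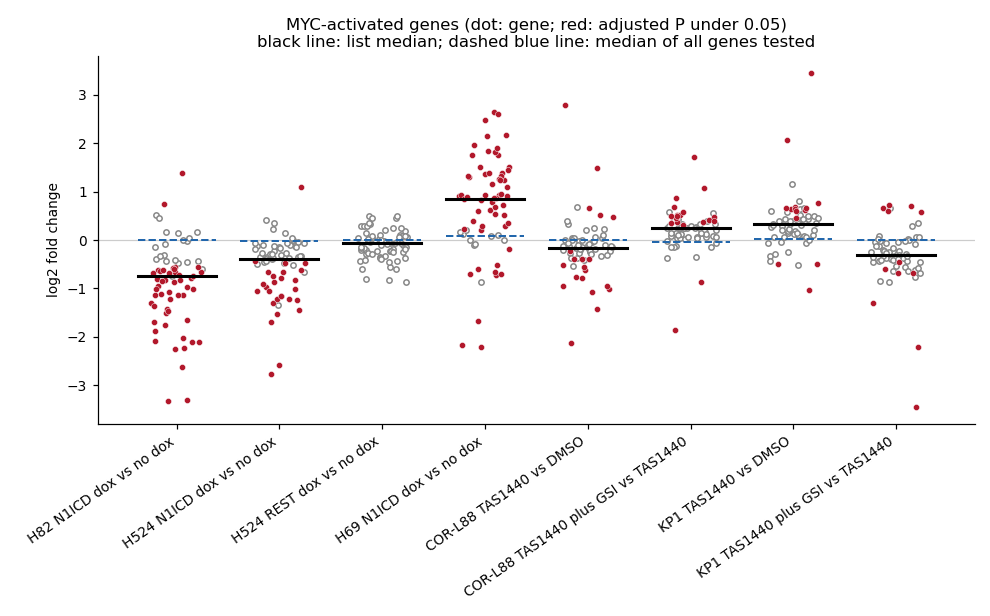
Log2 fold changes of the MYC-activated genes in 8 comparisons; each dot is a gene, red if its adjusted *P* is under 0.05, with the median of the list as a black line and the median of all genes tested as a dashed blue line. The list median is -0.74 in H82, -0.40 in H524, 0.86 in H69, -0.17 in COR-L88 with TAS1440 and 0.33 in KP1 with TAS1440.

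Of 6 genes that MYC is known to repress, *THBS1*, a matrix glycoprotein gene, rose wherever Notch signaling was activated by *N1ICD* or TAS1440: by 6.33 in H82, 3.92 in H524, 6.00 in H69, 5.71 in COR-L88 and 6.24 in KP1, that is with *MYC* falling, not called and rising. *NDRG1* fell by 3.51 in H82, 2.49 in H524, 4.76 in H69 and 1.71 in COR-L88, and rose by 1.28 in KP1. The cell cycle inhibitor *CDKN1A* rose by 3.35 in H82 and 3.25 in COR-L88 and fell by 2.09 in H69. The counts were 4 higher and 1 lower in H82, 1 and 1 of 5 in H524, 2 and 4 in H69, 4 and 1 of 5 in COR-L88 and 2 and 1 of 5 in KP1, where 50.3%, 32.3%, 82.3%, 57.7% and 36.7% of all genes were called in either direction. With *REST* in H524, where *MYC* was not called, 2 of 5 were higher and 0 lower (1.77% of all genes higher). These were *CDKN1A*, by 1.83, and *GADD45A*, by 1.60. That count ran from 0 to 2 when 1 library was left out.

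The mean level of 7 neuroendocrine markers went from 6.89 to 2.55 in H82 with *N1ICD* and from 6.86 to 1.96 in H69. In H524, where none of *MYC*, *MYCL*, *MAX*, *MXD1* and *MXI1* was called, it went from 7.40 to 5.37. With TAS1440 it went from 6.04 to 3.42, and with the GSI 4.40, in COR-L88, and from 3.66 to 1.21 and 3.78 in KP1. The COR-L88 markers did not move alike with the GSI. *INSM1*, *NCAM1* and *DLL3* were higher by 3.63, 1.995 and 1.97, and *CHGA* and *NEUROD1* lower by 0.75 and 0.80. *SYP* was at 4.95 with DMSO, 0.48 with TAS1440 and 0.62 with the GSI, and *UCHL1* at 9.85, 9.07 and 9.75. *NEUROD1* was at 5.69 with DMSO and 6.24 with TAS1440. With *REST* in H524 the mean of the 7 was 7.31 without and 6.96 with doxycycline. In COR-L88 *STING1* KO cells, where *MYCL* was at a mean of 6.49 under TAS1440, it went from 6.19 to 3.91. The part of these marker changes in the paralog values was not tested. Among markers of other cell types, *POU2F3*, a tuft cell factor, was higher in COR-L88 with TAS1440, by 2.21 (adjusted *P* = 2.44e-08), and in H524 it was at 2.20 ± 2.13 without and 3.57 ± 1.41 with *N1ICD* induction against 0 in parental cells. The 3 of 4 such markers in the table (*PTPRC*, *CD3E* and *POU2F3*) had a mean of at most 1.19 in any group, with *PTPRC* and *CD3E* near 0.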

How the data were processed

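The authors aligned reads of polyA RNA libraries (stranded kit) to hg19 or mm10, quantified genes and deposited log2(RPKM + 1) values; cutadapt, STAR, RSEM and edgeR are named in the submitters' processing notes without versions, and TMM scaling in the study's methods. Read counts were not used here, so depth per library and counting error are unknown. Relative library sizes, inferred from the smallest steps of low values, ran from 0.695 to 1.5 (human) and 0.871 to 1.06 (KP1). Human and KP1 tables were scaled separately, and no test was run across them.

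Groups came from the labels. Per line, all groups (for lines compared, their groups together) entered a limma fit (3.58.1, R 4.3.3) with a mean-variance trend, on genes at 1 or more in at least 3 libraries, with Benjamini-Hochberg adjustment over all genes tested, in 30 pairs and 7 tests of a difference between responses. Fold changes are on the log2(RPKM + 1) scale and understate those of low genes. Paralog shares used RPKM recovered as the power of 2 minus 1. Alternatives, tried 1 at a time, were dropping the filter, a pseudocount of 0.1, another scaling of the libraries (by quantiles or by their medians), a model of the compared groups only, variances fitted without the trend, and leaving out 1 library (99 fits). The fits were tested on simulated data with 200 changed genes per line. A log2 change of 1 was recovered in 42% of these genes for *N1ICD* in H524, 54% in H82 and 86% in H69. For a change of 2 the shares were 89%, 94% and 98%. False calls were 1.64% (COR-L88 with TAS1440) to 5.73% (H82 with *N1ICD*) of calls. A member not called may therefore still differ by about 1, above all in H524. Named genes were the 6 members, the targeted genes, the 3 genes most like each paralog, and from each list up to 3 called genes per direction with the largest change in a main comparison. The members and gene lists were chosen with earlier results of these data known, so their agreement with those results is not independent. Promoter letters were read from RefSeq (GRCh38.p14). Protein sequences were not used here. 1 gene of the fixed marker list is not reported here.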

Additional observations from a re-analysis of the deposited data

Results flagged for a closer look

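In 14 cases the response of a member differed between groups under a test of the difference itself (limma, adjusted *P* under 0.05). There were 7 such tests, with 5 or 6 members tested in each. Within lines they called 16.6% (H82 *REST* KO), 9.26% (H82 *STING1* KO), 19.1% (H524) and 7.93% (COR-L88) of all genes. Between lines they called 26.5% (H82 and H524), 58.3% (H69 and H82) and 51.9% (H69 and H524), so many genes besides the members differed. Within H82, the doxycycline response with *REST* KO minus that of intact cells was 1.11 for *MYC* and -1.66 for *MXD1*, and with *STING1* KO 1.36 for *MYCL*. In H524 the *MYCL* response to *N1ICD* minus that to *REST* was -1.74. In COR-L88 the *MYCL* response to TAS1440 with *STING1* KO minus that of intact cells was 1.74.

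Between lines carrying *N1ICD*, the doxycycline response of H82 minus that of H524 was 0.85 for *MYCN* and -1.91 for *MYCL*. That of H69 minus that of H82 was 6.43 for *MYC*, -6.23 for *MYCN*, 2.98 for *MYCL* and -1.1 for *MXD1*. That of H69 minus that of H524 was 4.75 for *MYC*, -5.38 for *MYCN* and 1.08 for *MYCL*. The call of *MYCN* between H82 and H524 was lost with quantile normalization (0.52, adjusted *P* = 0.111). *MYCN* was too low to be tested within either line and entered this fit only through H69. Its means without and with doxycycline were 0.54 and 1.24 in H82 and 0.2 and 0.06 in H524, so the 0.85 is not read as a result. *MYCL* in H69, at 0.24 and 1.09, was too low to be tested in that line. Its 2.98 and 1.08 are therefore not read as results on H69.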

How the results depend on the processing

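No paired analysis was possible because the replicate numbers in the labels run through the series and no number is shared by the groups compared. Direction and call held in 104 of 107 recomputations of *MYC*, *MYCN* and *MYCL* in the 8 main comparisons under another setting. The exceptions were *MYCL* in H524 with *REST* (2.039 with a pseudocount of 0.1, adjusted *P* = 0.051), *MYC* in H69 with *N1ICD* (3.782 with only the compared groups, 0.0519) and *Mycn* in KP1 with TAS1440 (-1.333 without a filter, 0.0647). With 1 library left out, 93 such recomputations kept direction and call, 14 lost and 1 gained a call. Over these fits *MYCL* in H524 with *REST* ran from 1.383 to 1.697, *MYC* in H524 with *N1ICD* from -1.432 to -0.434, *MYC* in H69 with *N1ICD* from 2.779 to 5.634 and *Mycn* in KP1 with TAS1440 from -1.765 to -1.108. *MYC* in uninduced against parental H69 ran from -0.779 to 2.076 and was reversed without library 49. For the other members and comparisons, 1027 recomputations kept direction and call, 29 lost and 11 gained a call under another setting, and with 1 library left out 1197 kept both, 85 lost, 10 gained and 1 reversed. The cause of these changes was not tested.

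Quantile normalization and median-centring shifted the median of all genes by over 0.1 for TAS1440 in COR-L88 (from 0.008 to -0.141 and -0.129) and for the GSI (from -0.041 to 0.082 and 0.094), and with them the count of MYC-activated genes. Leaving 1 library out of the list counts was chosen after seeing the data. List counts from refits stand without the share of all genes called in the same refit, which was not computed. The limits are 3 libraries per group, unknown depth, doxycycline arms made of adherent cells only, and KO labels that transcript levels do not check.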
